A study of Homo sapiens with 16 samples.

Results

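The vascular endothelial growth factors (VEGF), the angiopoietins and their receptors were followed through an isogenic fibroblast model of malignant transformation at 2 oxygen levels. The 10 genes were chosen by name, as the ligands VEGFA, VEGFB, VEGFC, PGF, ANGPT1 and ANGPT2, the receptors FLT1 and KDR, and the co-receptors NRP1 and NRP2, out of 34451 genes that could be summed from the deposited transcripts. RNA sequencing covered 4 cell lines derived from BJ, a human fibroblast line. The primary cells carried no added gene, the immortalized cells carried hTERT, the transformed cells hTERT and SV40, and the metastasizing cells hTERT, SV40 and Ras-G12V, so that each stage keeps the additions of the stage before. Every line was cultured for 6 passages at atmospheric oxygen or at 3% oxygen, in DMEM with serum, on duplicate plates, which gave 8 groups of 2 libraries (a and b) and 16 libraries in all. Each stage is a single line, so a stage cannot be told apart from that line, and p-values measure only the spread between plates.

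VEGFA is the main secreted driver of vessel growth, and in many cell types its gene is activated by the hypoxia-inducible factors (HIF) when oxygen falls. VEGFA signals through the receptor tyrosine kinase KDR, while FLT1 binds VEGFA, VEGFB and PGF with high affinity and has soluble forms that trap ligand outside the cell. The neuropilins NRP1 and NRP2 are co-receptors for VEGF and for class 3 semaphorins. ANGPT1 and ANGPT2 are ligands of the receptor tyrosine kinase TEK, ANGPT1 as an activator and ANGPT2 mostly as an antagonist. Fibroblasts are a well-known source of VEGFA and ANGPT1, whereas KDR, TEK and ANGPT2 are mainly genes of endothelial cells.

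The fibroblast label was checked against markers. Of 10 fibroblast markers, 9 or 10 had a mean of at least 1 TPM, which scales transcript levels by length and by the library total, in every group. Their summed level was 20136 and 20673 TPM in the primary libraries at atmospheric oxygen and 3832 to 5709 TPM over the transformed and metastasizing libraries. Of 12 endothelial markers, 11 were matched and 3 or 4 reached 1 TPM in a group, with sums of 5.46 to 30.7 TPM. Those above 1 TPM in some library were ECSCR (0 to 16.6 TPM), ROBO4 (0.210 to 16.3), MMRN2 (3.35 to 10.8) and EMCN (0.229 to 3.06). The other 7, with the defining genes CDH5 and VWF among them, did not exceed 0.518 TPM in any library. Mural cell markers reached 1 TPM for 4 to 6 of 6 genes, with sums of 39.2 to 92.0 TPM, and the part of these marker levels in the results was not tested. The duplicates of the metastasizing cells at 3% oxygen differed by more than 2-fold for 10.99% of genes above 1 TPM, against 1.83% to 4.08% in the other 7 groups. In bulk RNA, fewer expressing cells and less RNA per cell cannot be told apart.

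The members fell into 3 ranges of level. NRP1, VEGFA, VEGFB and FLT1 were abundant, with medians over the 16 libraries of 115.9, 71.9, 66.7 and 34.7 TPM. ANGPT1, NRP2 and PGF were intermediate, with medians of 14.5, 12.3 and 2.68 TPM. KDR and ANGPT2 were almost silent: KDR did not exceed 0.335 TPM and was listed at 0 in 5 libraries, and ANGPT2 did not exceed 0.472 TPM and was listed at 0 in 2 libraries. Neither reached a mean of 1 TPM in any group, and neither was tested. VEGFC needs its own reading. Its annotated coding transcript was not matched here, and its sum of 0.390 to 2.42 TPM is that of a single transcript with no defined coding sequence (ENST00000507638), so nothing is said here about the level of VEGFC coding mRNA.

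**Figure D1:**
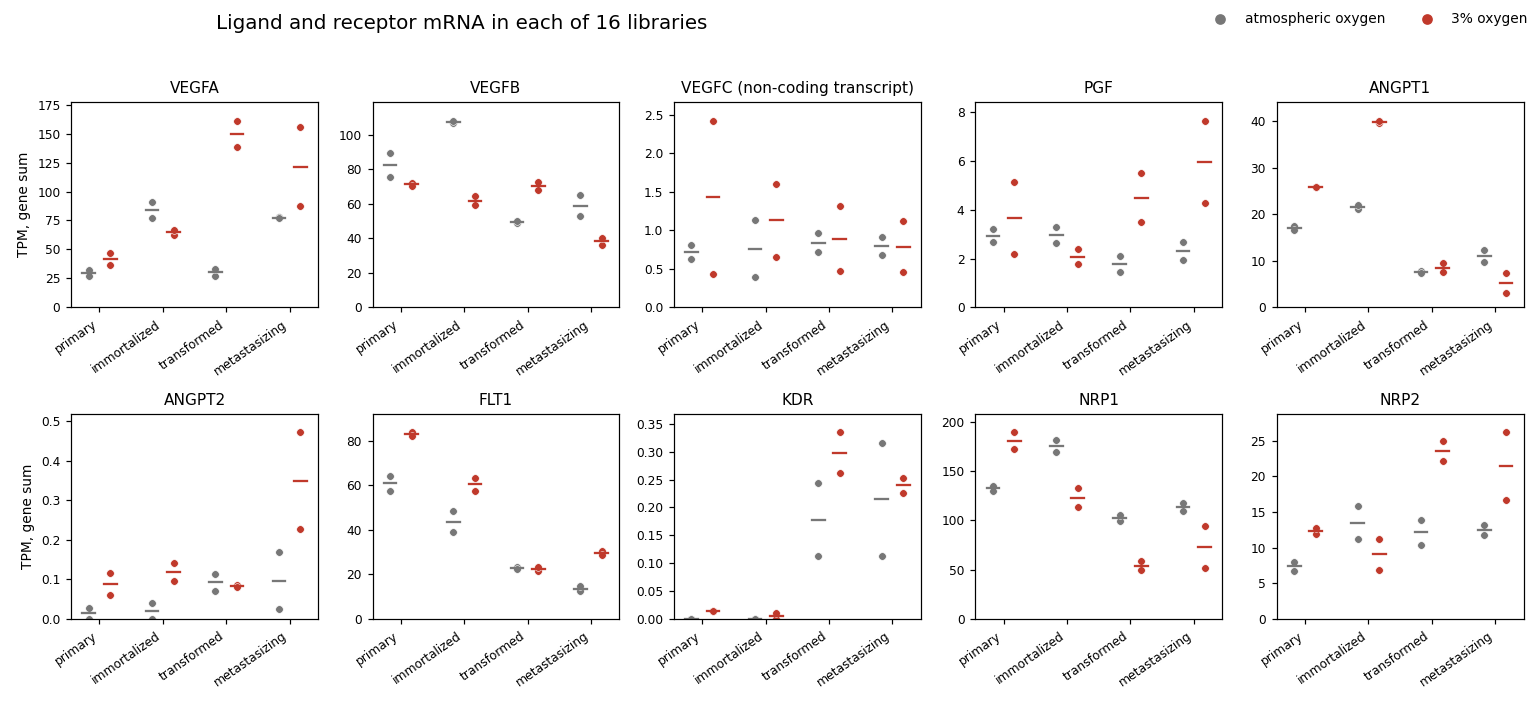
Level of each member in every library, as summed TPM on a linear axis from 0 for the 4 stages, with points for libraries a and b, bars for their mean, grey for atmospheric oxygen and red for 3% oxygen. VEGFA is highest in the transformed cells at 3% oxygen (161.1 and 138.5 TPM), FLT1 is highest in the primary cells, and KDR and ANGPT2 stay under 0.5 TPM.

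A member was called changed where the limma fit over all libraries gave an adjusted p under 0.01 and a difference of log2(TPM + 0.5) beyond 1 in either direction, that is 2-fold. Between the oxygen levels, 2 of 30 member and stage combinations tested were called, both higher at 3% oxygen: VEGFA in the transformed cells and FLT1 in the metastasizing cells. In the primary cells 0 of 8 members tested were called, beside 5.30% of all genes tested, and 2 had an unadjusted limma p under 0.05, beside 39.0% of all genes. In the immortalized cells 0 of 8 were called, beside 4.91% of all genes, and 4 had an unadjusted limma p under 0.05, beside 39.4%. In the transformed cells 1 of 7 was called beside 7.48%, and 5 had an unadjusted limma p under 0.05, beside 45.2%. In the metastasizing cells 1 of 7 was called beside 7.66%. All 7 had an unadjusted limma p under 0.05 there, beside 41.0%, with differences in both directions. By calls, a single one among 7 members does not set the family apart from the other genes. Whether the members differed from other genes as a set was not tested.

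**Figure D2:**
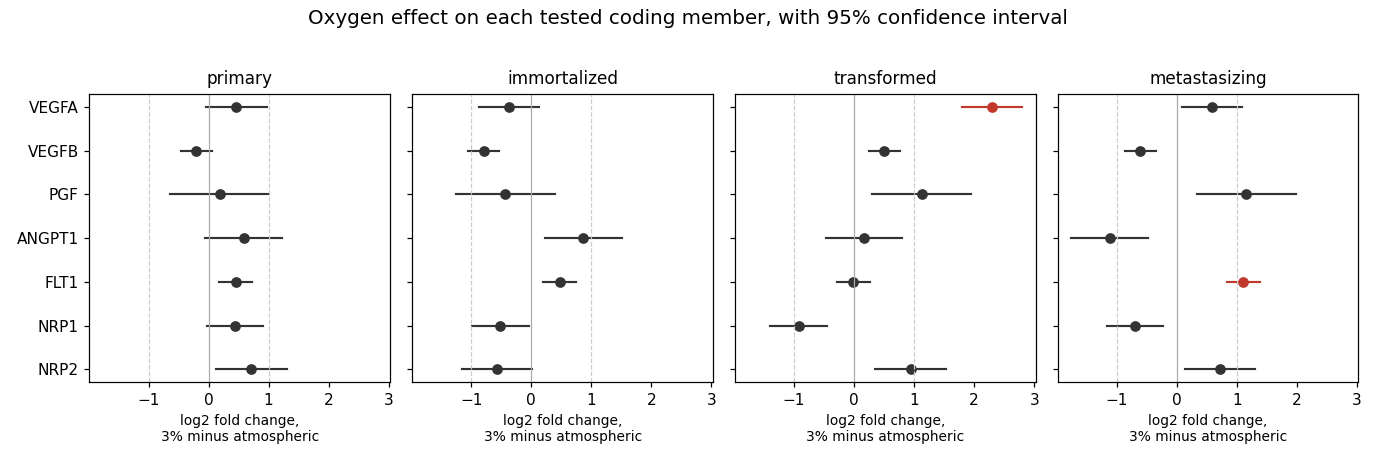
Difference between 3% and atmospheric oxygen in log2(TPM + 0.5) for the 7 members tested in every stage, with 95% confidence intervals from limma; red marks a called difference and dashed lines mark 2-fold. The VEGFA difference is 2.29 in the transformed cells and between -0.37 and 0.59 in the other 3 stages.

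VEGFA (ENSG00000112715, chr6:43737921-43754224, GRCh37, plus strand) rose at 3% oxygen in the transformed cells and was not called in the other 3 stages. In the transformed cells it stood at 27.0 and 33.5 TPM at atmospheric oxygen and at 161.1 and 138.5 TPM at 3% oxygen, means of 30.2 ± 4.57 and 149.8 ± 16.0 TPM (SD, n = 2). The groups were well apart, at 4.96 times the level, and the log2 difference was 2.29 ± 0.23 (SE; limma adjusted p = 6.86e-05). A fit of only the 4 transformed libraries left the same difference with an adjusted p of 0.0111.

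The other stages had smaller differences. In the primary cells VEGFA was 32.1 and 27.4 TPM at atmospheric oxygen and 46.5 and 36.3 TPM at 3%, a log2 difference of 0.46 (limma adjusted p = 0.159). In the immortalized cells it was 91.0 and 77.3 TPM against 62.5 and 66.8 TPM, lower in both libraries at 3% oxygen, with a log2 difference of -0.37 (limma adjusted p = 0.251). In the metastasizing cells it was 78.0 and 76.9 TPM against 155.4 and 87.6 TPM, a log2 difference of 0.59 (limma adjusted p = 0.0774). The 2 libraries at 3% oxygen were far apart here, and leaving out library b moved the difference to 1.0, while leaving out library a moved it to 0.18. The groups did not overlap in any of the stages.

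Other HIF target genes were called in each stage. Of 9 tested in each, 2 rose at 3% oxygen in the primary cells, 3 in the immortalized, 6 in the transformed and 1 in the metastasizing cells, and none fell. Over all genes tested, 5.30%, 4.91%, 7.48% and 7.66% were called in these stages. The single call in the metastasizing cells does not set the list apart there. BNIP3, PDK1, CA9 and NDRG1 were called in more than 1 stage, 2 others in the transformed cells alone, as VEGFA was, and 3 in none. BNIP3, a mitophagy receptor, rose by a log2 difference of 1.84, 1.55 and 1.90 in the first 3 stages (limma adjusted p = 8.64e-05, 0.000252 and 5.51e-05), where VEGFA differed by 0.46, -0.37 and 2.29. CA9, a carbonic anhydrase used as a hypoxia marker, rose by 3.63 in the immortalized cells and by 5.74 in the transformed cells. NDRG1, a stress-responsive gene, rose by 4.57 in the transformed cells and by 2.20 in the metastasizing cells. The median log2 difference of the 9 genes was 0.94, 0.52, 1.29 and 0.02 across the stages, beside 0.08, 0.11, 0.01 and -0.13 over all genes tested. Of 9 HIF subunits and factors of VEGFA mRNA decay or stability, none was called by limma between oxygen levels in any of the 4 stages, with 1, 4, 5 and 3 at an unadjusted p under 0.05, beside 39.0%, 39.4%, 45.2% and 41.0% of all genes. ELAVL1, which binds and stabilizes VEGFA mRNA, was lower at 3% oxygen in the transformed cells by an amount under 2-fold (log2 difference -0.50, limma adjusted p = 0.00144). The median of the 9 was 0.19 there. From immortalized to transformed cells at atmospheric oxygen, EPAS1 (a HIF subunit), ZFP36L1 and ZFP36L2 were called lower, beside 24.3% of all genes. ZFP36L2 was also called lower at that step at 3% oxygen, beside 16.3%. The oxygen effect was called higher for EPAS1 in transformed than immortalized cells (12.0% of all genes). For ZFP36L1 it was called lower in metastasizing than transformed cells (8.47%).

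At atmospheric oxygen VEGFA alternated along the model, high in the immortalized and metastasizing cells and low in the primary and transformed cells. Means were 29.8 ± 3.33, 84.1 ± 9.70, 30.2 ± 4.57 and 77.5 ± 0.78 TPM (SD, n = 2) in order of stage. It rose by a log2 difference of 1.48 ± 0.23 from primary to immortalized cells (limma adjusted p = 0.000511), fell by 1.47 ± 0.23 to the transformed cells (limma adjusted p = 0.000262) and rose by 1.35 ± 0.23 to the metastasizing cells (limma adjusted p = 0.00241). The last of these was lost without any 1 of the 4 libraries compared and kept without any 1 of the other 12: the adjusted p was 0.0290 without transformed library a, 0.0109 without transformed library b, 0.0188 without metastasizing library a and 0.0205 without metastasizing library b.

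At 3% oxygen the order was different. Means were 41.4 ± 7.22, 64.6 ± 3.07, 149.8 ± 16.0 and 121.5 ± 48.0 TPM (SD, n = 2), and the neighbouring transformed and metastasizing groups overlapped. Only the step from immortalized to transformed cells was called (log2 difference 1.20 ± 0.23, limma adjusted p = 0.00157), and its adjusted p was 0.0142 without immortalized library a and 0.0139 without transformed library a. The steps on either side were 0.65 and -0.35 (limma adjusted p = 0.0546 and 0.278).

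The oxygen effect on VEGFA itself differed between stages. It was larger in the transformed than in the immortalized cells by 2.67 ± 0.32 on the log2 scale (limma interaction, adjusted p = 0.000208), and smaller in the metastasizing than in the transformed cells by a difference of -1.71 ± 0.32 (adjusted p = 0.00364). The second interaction was lost without transformed library a at either oxygen level (adjusted p = 0.0185 at atmospheric and 0.0135 at 3% oxygen), without metastasizing library a or b at atmospheric oxygen (0.0137 and 0.0154) and in a fit of only these libraries (0.034). With coding transcripts alone it was -1.08 (adjusted p = 0.0261). Between primary and immortalized cells the interaction was -0.84 (adjusted p = 0.158).

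Over all members, 5 of 21 were called between neighbouring stages at atmospheric oxygen, 5 of 23 at 3% oxygen and 5 of 23 as a difference of the oxygen effect. For the steps from primary to immortalized, to transformed and to metastasizing cells, 1, 3 and 1 of 7 members were called at atmospheric oxygen, beside 12.2%, 24.3% and 4.12% of all genes tested. At 3% oxygen 0 of 8, 5 of 8 and 0 of 7 were called, beside 9.23%, 16.3% and 5.92%, and the 2 empty limma comparisons each had 3 members at an unadjusted p under 0.05, beside 40.4% and 39.7% of all genes. For the oxygen effect, 0 of 8, 2 of 8 and 3 of 7 were called, beside 1.86%, 12.0% and 8.47%, and in the first of these 4 members had an unadjusted p under 0.05, beside 22.0% of all genes. The median difference over all genes was not 0 in every comparison: it was 0.22 and 0.11 on the log2 scale from immortalized to transformed cells at atmospheric and 3% oxygen, 0.11 and -0.13 between oxygen levels in the immortalized and metastasizing cells, and -0.15 for the last interaction.

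VEGFA mRNA is spliced into isoforms that differ in how strongly they bind heparan sulfate and neuropilin. Exons 6a and 7 code for the basic stretches that hold the protein to the matrix. The shortest common form skips both and diffuses freely, the middle form keeps exon 7 and the longest common form keeps both. The coding sequence of VEGFA-206 (147 codons, known as VEGF121) skips both, VEGFA-225 (191 codons, VEGF165) and VEGFA-205 (371 codons, with an upstream start and the same exon choice) hold exon 7, and VEGFA-222 (215 codons, VEGF189) holds both. Both exons are shown here because their presence or absence separates these forms. They lie at chr6:43748469-43748540 and chr6:43749693-43749824 (GRCh37, plus strand, coding), and capitals mark the in-frame codons for lysine or arginine, 12 of 23 whole codons in exon 6a and 9 of 43 in exon 7.
VEGFA exon 6a: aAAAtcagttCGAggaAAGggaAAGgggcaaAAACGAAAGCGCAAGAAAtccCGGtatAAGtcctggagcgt
VEGFA exon 7: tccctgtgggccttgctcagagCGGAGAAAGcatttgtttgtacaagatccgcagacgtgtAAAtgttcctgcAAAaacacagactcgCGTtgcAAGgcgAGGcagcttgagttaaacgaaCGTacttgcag

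Forms with and without the basic exons rose together in the transformed cells. In a fit over all transcripts, 4 of 11 VEGFA transcripts tested were called at 3% oxygen in the transformed cells. None was called by limma in the primary, immortalized and metastasizing cells, where 4 of 10, 0 of 12 and 4 of 11 had an unadjusted p under 0.05, beside 24.1%, 22.2% and 22.4% of all transcripts. The share of all transcripts called was 2.29% in the primary, 1.20% in the immortalized, 2.80% in the transformed and 1.69% in the metastasizing cells. VEGFA-206, the diffusible form, was 10.9 and 11.9 TPM at atmospheric oxygen and 34.9 and 36.0 TPM at 3% (log2 difference 1.60, limma adjusted p = 0.00379). VEGFA-205 was 3.34 and 2.56 TPM against 27.5 and 26.8 TPM (3.01, limma adjusted p = 8.75e-05). VEGFA-222, the matrix-bound form, was 2.99 and 1.66 TPM against 12.1 and 7.71 TPM (1.89, limma adjusted p = 0.00613). VEGFA-225 was 6.73 and 6.23 TPM against 26.6 and 16.6 TPM and was not called. For each of these the oxygen groups did not overlap. The call of VEGFA-206 was lost when any 1 of the 4 transformed libraries was left out (adjusted p 0.0193 to 0.0329). That of VEGFA-222 was lost without any 1 of these 4, and also without either immortalized library at 3% oxygen or either metastasizing library at atmospheric oxygen (0.0112 to 0.0549).

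The 6 other VEGFA transcripts tested in the transformed cells were not called. VEGFA-214 and VEGFA-216 (3.27 and 2.61, limma adjusted p = 0.0103 for each), VEGFA-201 (3.72, 0.0611), VEGFA-217 (2.81, 0.172) and VEGFA-218 (1.51, 0.0912) lay higher at 3% oxygen, and VEGFA-210 lay lower (-1.78, 0.418). VEGFA-212 and VEGFA-223 reached 1 TPM in other groups.

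The fourth called transcript, VEGFA-215, keeps an intron and codes for no protein. It rose from 1.55 and 2.27 TPM to 27.1 and 22.3 TPM in the transformed cells, a log2 difference of 3.40 (limma adjusted p = 0.000728). All 6 retained-intron transcripts together made up 11.2% and 13.3% of VEGFA TPM in the transformed cells at atmospheric oxygen and 30.4% and 29.2% at 3%. In the metastasizing cells the share ran the other way, from 28.4% and 32.0% to 13.8% and 13.3%, and in the primary cells from 50.1% and 34.4% to 23.8% and 22.5%. The immortalized groups overlapped, with 27.7% and 22.1% against 16.9% and 32.8%. With coding transcripts alone, the VEGFA difference in the transformed cells was 1.97 (limma adjusted p = 0.000109), and in the primary and metastasizing cells it was 0.88 and 0.89 (limma adjusted p = 0.0133 and 0.0117). Among 8 splice factors and kinases known to act on VEGFA splicing, SRSF5 rose in the transformed cells (log2 difference 1.04, limma adjusted p = 0.000323). SRSF6 rose in the immortalized and metastasizing cells (1.03 and 1.08, limma adjusted p = 0.000165 and 9.32e-05), and none was called by limma in the primary cells. These are single calls, beside 4.91%, 7.48% and 7.66% of all genes in the last 3 stages, and do not set the list apart. In order of stage, 4, 4, 6 and 7 had an unadjusted limma p under 0.05, beside 39.0%, 39.4%, 45.2% and 41.0% of all genes. A link to the VEGFA transcripts was not tested.

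**Figure D3:**
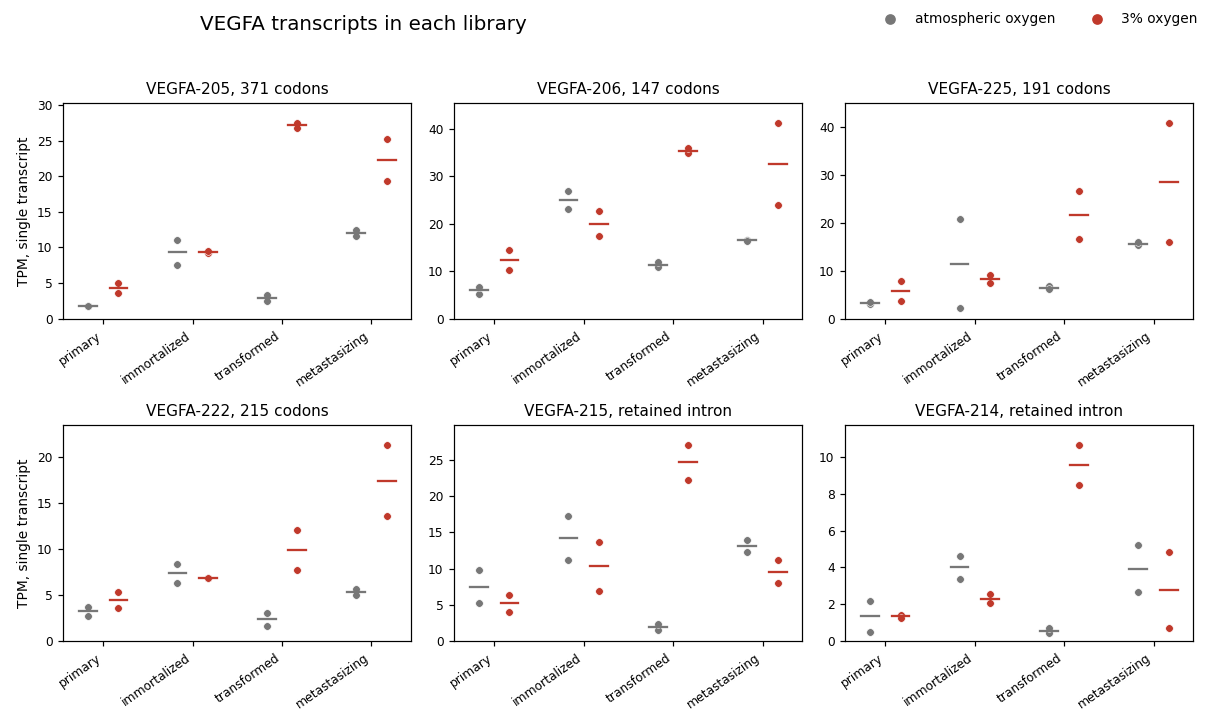
TPM of 6 VEGFA transcripts in each library on linear axes from 0, with points for libraries a and b, bars for their mean, grey for atmospheric and red for 3% oxygen. In the transformed cells all 6 are higher at 3% oxygen, and the retained-intron transcript VEGFA-215 goes from 1.55 and 2.27 TPM to 27.1 and 22.3 TPM.

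VEGFB (ENSG00000173511, chr11:64002056-64006736, plus strand), a ligand of FLT1 tied to lipid handling more than to vessel growth, had oxygen differences of opposite sign between stages, each under 2-fold. In the primary cells it was 89.6 and 75.5 TPM at atmospheric and 72.1 and 70.4 TPM at 3% oxygen (log2 difference -0.21, limma adjusted p = 0.218). In the immortalized cells it was 106.8 and 108.1 TPM at atmospheric and 59.3 and 64.3 TPM at 3% oxygen, a log2 difference of -0.79 (limma adjusted p = 0.000882). In the transformed cells it was 48.8 and 50.2 TPM against 68.2 and 72.6 TPM, higher by 0.50 (limma adjusted p = 0.00721). In the metastasizing cells it was 65.2 and 52.7 TPM against 36.2 and 40.3 TPM, lower by -0.61 (limma adjusted p = 0.00335).
The last 3 differences were under 2-fold and so not called, and the groups did not overlap. They no longer passed the adjusted p without immortalized library a at 3% oxygen (0.013), without any 1 of the 4 transformed libraries (0.0218 to 0.0482), of the 4 immortalized or of the primary libraries at 3% (0.0117 to 0.012 for the transformed difference), and without metastasizing library a at atmospheric (0.0341) or at 3% oxygen (0.0165). The oxygen effect differed by 1.30 ± 0.17 between transformed and immortalized cells and by -1.11 ± 0.17 between metastasizing and transformed cells (limma interactions, adjusted p = 0.000282 and 0.00101). The second was no longer 2-fold without metastasizing library a at atmospheric oxygen (-0.96) or with median-ratio rescaling (-0.98), and its adjusted p was 0.0201 in a fit of only these libraries. At atmospheric oxygen VEGFB fell by 1.11 ± 0.12 from immortalized to transformed cells (limma adjusted p = 1.44e-05).

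These VEGFB values lean on a transcript without a protein. VEGFB-204, which keeps an intron, held 53.5% to 80.4% of VEGFB TPM by group (mean of both libraries). With the coding transcripts alone neither interaction nor the fall at atmospheric oxygen passed the test: the values were 1.73, -1.29 and -0.76 (limma adjusted p = 0.0612, 0.163 and 0.176). The oxygen differences were then -1.39, 0.34 and -0.95 in the immortalized, transformed and metastasizing cells, and none was called. Over all other settings their limma adjusted p rose to as much as 0.0433, 0.592 and 0.148. The main coding transcript VEGFB-201 varied between duplicates, with 18.3 and 37.7 TPM in the immortalized cells at atmospheric oxygen.

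PGF (ENSG00000119630, chr14:75408537-75422329, minus strand), placental growth factor, binds FLT1 and not KDR. It was low throughout, from 1.43 to 7.65 TPM. At 3% oxygen it stood at 3.49 and 5.50 TPM in the transformed cells, above 1.43 and 2.10 TPM at atmospheric oxygen, and at 4.26 and 7.65 TPM in the metastasizing cells, above 2.69 and 1.93 TPM. The groups did not overlap in either stage, but the log2 differences of 1.13 and 1.16 did not pass the test (limma adjusted p = 0.0377 and 0.0392). In the primary cells the groups overlapped, at 2.67 and 3.22 TPM against 5.16 and 2.20 TPM. In the immortalized cells the values at 3% oxygen were lower, 2.38 and 1.77 TPM against 2.65 and 3.29 TPM (log2 difference -0.44, limma adjusted p = 0.417).

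ANGPT1 (ENSG00000154188) was highest in the immortalized cells and low after SV40 was added. It stood at 21.2 and 21.9 TPM in the immortalized and 7.71 and 7.30 TPM in the transformed cells at atmospheric oxygen, a fall of 1.46 ± 0.29 on the log2 scale (limma difference -1.46, adjusted p = 0.0013). At 3% oxygen it stood at 39.5 and 40.0 TPM against 9.49 and 7.59 TPM, a difference of -2.16 ± 0.29 (limma adjusted p = 0.00015). The groups were far apart at both oxygen levels, though the first call was lost without transformed library b (adjusted p = 0.0109).
No oxygen difference of ANGPT1 was called, nor any difference of that effect between neighbouring stages (0.28, -0.70 and -1.29, limma interactions, adjusted p = 0.755, 0.22 and 0.0402). ANGPT1 was 17.4 and 16.6 TPM at atmospheric oxygen and 25.7 and 25.8 TPM at 3% in the primary cells (log2 difference 0.58, limma adjusted p = 0.16), and 0.87 higher at 3% in the immortalized cells (limma adjusted p = 0.0468), and it differed by 0.17 in the transformed cells (limma adjusted p = 0.688). In the metastasizing cells it was 9.64 and 12.3 TPM against 2.97 and 7.42 TPM, a log2 difference of -1.12 that did not pass the test (limma adjusted p = 0.0153). Without metastasizing library b at 3% oxygen, that difference was -1.71 and passed (limma adjusted p = 5.94e-05), and it was -1.29 with coding transcripts alone (limma adjusted p = 0.00527). ANGPT2 (ENSG00000091879) had its highest values in the metastasizing cells at 3% oxygen, 0.226 and 0.472 TPM.

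FLT1 (ENSG00000102755, chr13:28874483-29069282, minus strand) was the receptor tyrosine kinase of the members that was clearly present, and KDR the one that was not. Its level was lower at each later stage at atmospheric oxygen, though no single step was called. At atmospheric oxygen it stood at 57.5 and 64.0 TPM in the primary, 48.3 and 38.9 in the immortalized, 23.1 and 22.1 in the transformed and 12.3 and 14.7 in the metastasizing cells. No neighbouring groups overlapped. The log2 differences between neighbours were -0.48, -0.92 and -0.73 (limma adjusted p = 0.0121, 0.000101 and 0.00275), each under 2-fold. The middle step passed 2-fold with median-ratio rescaling (-1.13), with quantile normalization (-1.06) and without immortalized library b (-1.08).

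At 3% oxygen FLT1 stood at 83.7 and 82.3 TPM in the primary, 63.4 and 57.5 in the immortalized, 21.5 and 23.4 in the transformed and 30.5 and 28.8 in the metastasizing cells. The fall from immortalized to transformed cells was the largest step (log2 difference -1.41 ± 0.13, limma adjusted p = 8.73e-06). The level was higher at 3% than at atmospheric oxygen by 0.45 and 0.47 in the primary and immortalized cells (limma adjusted p = 0.0235 and 0.0185). It differed by -0.01 in the transformed cells, with a 95% interval of -0.29 to 0.27, and by 1.11 ± 0.13 in the metastasizing cells (limma adjusted p = 0.000167). The oxygen effect was larger in the metastasizing than in the transformed cells by 1.12 ± 0.18 (limma interaction, adjusted p = 0.00148). Without metastasizing library a at atmospheric oxygen these were 0.98 and 0.996, just under 2-fold, and in a fit of only these libraries the adjusted p was 0.0717 and 0.0236.

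Behind the FLT1 sum in the transformed cells lay transcripts with differences of opposite sign, of which only that of the full-length form was called. FLT1-201 codes for the full-length receptor of 1338 residues, with its membrane-spanning part and kinase. FLT1-204 codes for 733 residues and ends before them, on an alternative last exon rich in serine, which makes it a soluble form. Its own coding end, chr13:28942718-28942800 (GRCh37, minus strand), is shown because the coding sequence of the full-length receptor lacks it, and capitals mark serine codons in frame, 20 of 27 whole codons.
FLT1-204 coding end: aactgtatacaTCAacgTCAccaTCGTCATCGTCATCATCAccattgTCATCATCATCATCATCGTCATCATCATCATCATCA

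In the transformed cells FLT1-201 was 2.56 and 2.13 TPM at atmospheric oxygen and 7.53 and 8.16 TPM at 3%, a log2 difference of 1.55 ± 0.20 (limma adjusted p = 0.00122, called). FLT1-204 was 18.3 and 15.2 TPM against 8.74 and 10.1 TPM, lower by -0.79 ± 0.15, under 2-fold (limma adjusted p = 0.00961). The groups did not overlap for either form. FLT1-202, a transcript marked for nonsense-mediated decay, was 1.09 and 3.56 TPM against 4.48 and 3.91 TPM, 20.8% and 16.7% of FLT1 at 3% oxygen, and its difference of 0.88 was not called (limma adjusted p = 0.547). Of the TPM of both forms, the full-length receptor made up 12.3% in each library at atmospheric oxygen and 46.3% and 44.7% at 3%. In the other 3 stages this share lay between 12.6% and 31.5% in all libraries. The share covers these 2 forms alone, and only 3 of 5 annotated coding transcripts of FLT1 were matched. The adjusted p of FLT1-201 was 0.0142 without transformed library b at atmospheric oxygen, and that of FLT1-204 was 0.0235 to 0.0743 without any 1 of the 4 transformed libraries and 0.0103 to 0.0162 without any other except those of the metastasizing cells at 3% oxygen.

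In the metastasizing cells both forms were higher at 3% oxygen. FLT1-201 was 1.86 and 2.15 TPM against 4.77 and 6.11 TPM (log2 difference 1.24, limma adjusted p = 0.00528), and FLT1-204 was 9.08 and 9.95 TPM against 19.8 and 22.7 TPM (1.12, limma adjusted p = 0.0025). Both calls were lost without either metastasizing library at atmospheric oxygen, with adjusted p of 0.0389 and 0.0238 for FLT1-201 and 0.0236 and 0.0152 for FLT1-204. That of FLT1-201 was also lost without metastasizing library b at 3% oxygen (0.0141) or either primary library at 3% (0.0105). In the primary cells FLT1-201 did not move with oxygen beyond its spread, at 17.5 and 17.3 against 17.7 and 17.9 TPM, while FLT1-204 was 38.0 and 41.7 against 60.0 and 60.9 TPM (log2 difference 0.60, limma adjusted p = 0.0382).

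At atmospheric oxygen each form was called at a single step. FLT1-201 fell from primary to immortalized cells, from 17.5 and 17.3 TPM to 5.66 and 4.42 TPM (log2 difference -1.70, limma adjusted p = 0.000312), where FLT1-204 differed by -0.21 (limma adjusted p = 0.372). From immortalized to transformed cells FLT1-204 fell from 38.2 and 30.7 TPM to 18.3 and 15.2 TPM (-1.02, limma adjusted p = 0.000896), and FLT1-201 was lower by an amount under 2-fold (-0.95, limma adjusted p = 0.00546). The call of FLT1-204 was lost without immortalized library a (adjusted p = 0.0103) or transformed library b (0.012). From transformed to metastasizing cells neither was called (-0.18 and -0.78). Over all transcripts, 6.06%, 10.4% and 0.668% were called at these 3 steps. The difference between the forms was not tested.

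**Figure D4:**
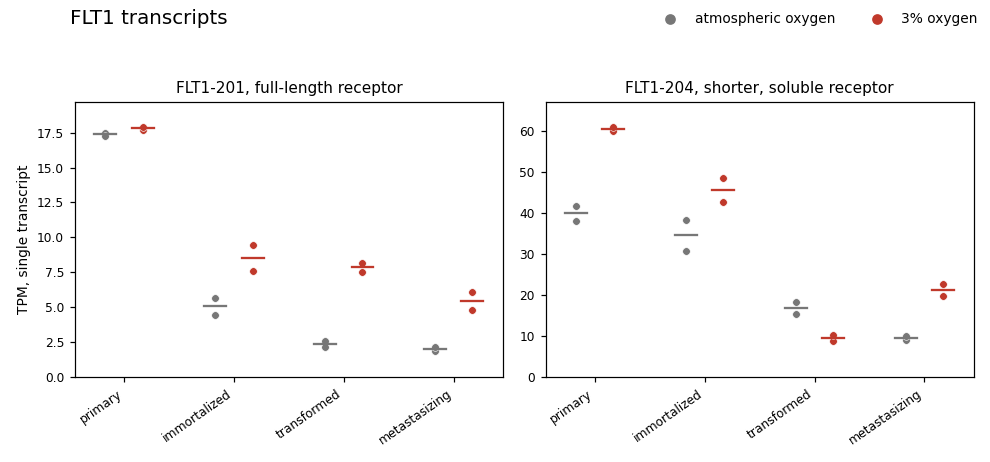
TPM of the full-length (FLT1-201) and soluble (FLT1-204) FLT1 transcripts in each library on linear axes from 0, with points for libraries a and b, bars for their mean, grey for atmospheric and red for 3% oxygen. In the transformed cells the full-length form is higher at 3% oxygen (7.53 and 8.16 against 2.56 and 2.13 TPM) while the soluble form is lower (8.74 and 10.1 against 18.3 and 15.2 TPM).

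KDR (ENSG00000128052, chr4:55944648-55991762, minus strand), the main signalling receptor for VEGFA, was listed at 0 in all 4 primary and immortalized libraries at atmospheric oxygen and at 0.0145 TPM or less in those at 3%. It lay between 0.113 and 0.335 TPM in the 8 transformed and metastasizing libraries, which did not overlap with the others. These levels are under 1 TPM and were not tested.

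NRP1 (ENSG00000099250, chr10:33466420-33625190, minus strand), co-receptor for VEGFA and semaphorins, was the most abundant member by its median. Its level at 3% oxygen fell after SV40 was added, from 132.6 and 113.8 TPM in the immortalized to 58.7 and 49.3 TPM in the transformed cells (log2 difference -1.18 ± 0.21, limma adjusted p = 0.00108). The groups were apart, and the adjusted p was 0.0128 without immortalized library a and 0.0125 without transformed library b. Between oxygen levels NRP1 was lower at 3% in the transformed cells, where it was 99.1 and 106.1 TPM at atmospheric oxygen, by an amount under 2-fold (-0.92, limma adjusted p = 0.00695). Without any 1 of the 4 transformed libraries that p was 0.0173 to 0.051, and without any other library except those of the metastasizing cells at 3% oxygen it was 0.0106 to 0.0113.
In the primary cells it was 134.9 and 130.3 TPM against 189.5 and 172.2 TPM at 3% (0.44, limma adjusted p = 0.146). The metastasizing libraries at 3% oxygen differed from each other, with 51.6 and 94.4 TPM against 118.1 and 109.3 TPM at atmospheric oxygen. The log2 difference there was -0.70 (limma adjusted p = 0.0313) and -1.13 without library b at 3% (limma adjusted p = 0.00015).

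NRP2 (ENSG00000118257, chr2:206546714-206662857, plus strand), co-receptor for VEGFC and semaphorins, rose from immortalized to transformed cells at 3% oxygen, the step at which NRP1 fell. At 3% oxygen it rose from 11.2 and 6.89 TPM in the immortalized to 22.2 and 24.9 TPM in the transformed cells (log2 difference 1.37 ± 0.27, limma adjusted p = 0.00176). That call was lost without immortalized library b (adjusted p = 0.022), without transformed library b (0.0158) and in a fit of only these libraries (0.0181). In the transformed cells NRP2 was 13.9 and 10.4 TPM at atmospheric oxygen, below the values at 3%, with a log2 difference of 0.94 that did not pass (limma adjusted p = 0.019).
Among its 7 matched coding transcripts, NRP2-204 of 931 codons was 3.60 and 3.32 TPM against 11.2 and 10.3 TPM in these cells. It was called (1.51, limma adjusted p = 0.00465), beside 2.80% of all transcripts. With all coding transcripts summed, NRP2 was still not called in these cells. The oxygen effect on NRP2 differed between transformed and immortalized cells by 1.51 (limma interaction, adjusted p = 0.011), just outside the threshold, and it passed under 5 of the alternative settings and without 3 single libraries. NRP2 in the primary cells was 6.72 and 7.96 TPM against 11.9 and 12.8 TPM (0.71, limma adjusted p = 0.0701), with no overlap.

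Of 5 further genes of the pathway, VEGFD, FLT4 and ANGPT4 did not exceed 0.408 TPM. The angiopoietin receptor TEK and its relative TIE1 each reached the level needed for an oxygen test in a single stage. TEK did so at both oxygen levels, TIE1 only through the 3% group where it was high, so the filter itself favoured a rise of TIE1. Each was called there, beside 5.30% of all genes in the primary and 7.66% in the metastasizing cells. TEK was 1.48 and 1.89 TPM in the primary cells at atmospheric oxygen and 10.1 and 10.3 TPM at 3% (log2 difference 2.29, limma adjusted p = 2.82e-05), and it did not exceed 0.191 TPM in any library of the later stages. TIE1 was 0.206 and 0.208 TPM in the metastasizing cells at atmospheric oxygen and 4.73 and 19.9 TPM at 3% (3.87, limma adjusted p = 0.000267), and 0.882 TPM or less in all other libraries. In the 3 stages where each was not tested, both genes lay under 1 TPM at both oxygen levels, and no difference is read from those values. The 2 libraries with TIE1 above 1 TPM were far apart and belong to the group with the widest spread between duplicates.

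In related lists a few genes each were called between oxygen levels. Over all genes tested, 5.30%, 4.91%, 7.48% and 7.66% were called in order of stage. A single called gene in lists this short does not set them apart, and no list was tested as a set. Among 14 other angiogenic factors tested, CXCL8, which codes for interleukin-8, fell in the immortalized cells at 3% oxygen (log2 difference -5.10, limma adjusted p = 0.000881). It rose in the transformed cells (4.02, limma adjusted p = 0.00225). MDK and PTN, heparin-binding growth factors, fell in the primary, transformed and metastasizing cells, by -1.59, -1.48 and -1.57 for MDK and by -1.19, -1.12 and -1.72 for PTN. Of 9 angiogenesis inhibitors, 6, 7, 8 and 7 were tested in the 4 stages and 3, 2, 1 and 1 were called. SERPINF1 fell in the primary and immortalized cells (-2.14 and -2.21), VASH1 fell (-1.04) and TIMP3 rose (2.23) in the primary, ISM1 fell in the immortalized (-2.19), COL4A3 rose in the transformed (1.46) and THBS2 fell in the metastasizing cells (-1.58). ISM1 and COL4A3 were low, at 0 to 4.10 and 0.0277 to 1.18 TPM over all libraries. Each reached the level needed for a test only through the group where it was higher. PDGFRB, a receptor of mural cells and fibroblasts, fell in the primary and metastasizing cells (-1.60 and -1.38) among 5 genes of the PDGF system tested in each. Of 8 class 3 semaphorins and plexins tested, SEMA3A and PLXNA2 rose and SEMA3D fell in the primary cells, PLXNA2 rose and SEMA3D fell in the metastasizing cells, and none was called by limma in the immortalized and transformed cells, with 3 in each at an unadjusted p under 0.05, beside 39.4% and 45.2% of all genes. Of the angiopoietin-like genes, 2 were tested in the primary cells, where ANGPTL4 rose by 2.86 and ANGPTL2 fell with a difference of -1.54.

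Across the 8 group means of log2(TPM + 0.5), the protein-coding genes most like VEGFA among 13146 were SLC41A2, INPP1, YES1, ZFAND1 and GLCE, with Pearson's r of 0.969, 0.968, 0.967, 0.957 and 0.957. The nearest to VEGFB were SLC46A3, RNF146 and HINT3 (r of 0.987, 0.983 and 0.976), and to FLT1 JHY, CCND1 and SPCS3 (0.986, 0.980 and 0.966). For ANGPT1 they were FBXW8, C8orf34 and FAM120B (0.981, 0.979 and 0.964), and for NRP2 ETV5, MBP and MAFG (0.954, 0.947 and 0.933). For PGF they were WWC3, ALOX5AP and VPS37B (0.917, 0.901 and 0.898), and for the VEGFC transcript MKI67, NOTCH2 and FBXW2 (0.969, 0.967 and 0.964). No member was among the nearest genes of another. With 8 points that share their libraries, and so many genes compared, values of this size are a description of likeness in these groups. Between members, r ran from -0.70 for NRP1 with NRP2 to 0.79 for VEGFA with NRP2.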

How the data were processed

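Libraries of poly-A selected, stranded RNA were quantified by the authors with kallisto 0.42.1 against GRCh37, per the labels. The deposited values are TPM for each of 180253 transcripts, and every library adds up to 1000000. TPM hold no read counts, so the depth of each library is unknown here, and kallisto shares reads among overlapping transcripts, so single-transcript values are less certain than gene sums. Identifiers were matched to GENCODE 44 (151453 matched, 28800 not; 88.2% to 90.1% of TPM) and summed per gene. A member's sum misses transcripts that were not matched: 19 of 20 coding transcripts were matched for VEGFA, 3 of 5 for FLT1 and 0 of 1 for VEGFC.

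Tests were run with limma 3.58.1 (R 4.3.3) on the log2 of TPM plus 0.5, as 1 model with a coefficient for each of 8 groups and an intensity trend. Protein-coding genes, or all transcripts, were kept where a group compared averaged 1 TPM or more. Fold changes on this scale understate changes of low genes. P-values were adjusted over all genes tested (Benjamini-Hochberg), and the procedure was tested on simulated data. All members are named, with VEGFA transcripts at a group mean of 1 TPM or more and at most 4 called genes a list and comparison. Other transcripts are described only at 10% or more of their gene, and only for FLT1, VEGFB, VEGFC and NRP2; those of PGF, ANGPT1 and NRP1 are not described singly. Figures were drawn in Python 3.11.15 with matplotlib 3.10.9. Members and gene lists were chosen with earlier results of these data known. The genes most like NRP1 are not reported here.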

Additional observations from a re-analysis of the deposited data

Results flagged for a closer look

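The response to oxygen of 3 members differed between neighbouring stages in a limma interaction test. The VEGFA effect was larger in the transformed than in the immortalized cells by 2.67 on the log2 scale, and the metastasizing minus transformed difference was -1.71. The call at 2.67 was kept under every other setting. That at -1.71 was lost under 6 of them, with coding transcripts alone (-1.08) among these. The VEGFB effect differed by 1.30 and by -1.11 in the same comparisons, with retained-intron transcripts counted, and neither call was kept with coding transcripts alone. The FLT1 effect was larger in the metastasizing than in the transformed cells by 1.12, a call lost under 2 other settings. The metastasizing minus transformed interactions share the transformed libraries with the others. With groups of 2, leaving out a library shows how far a result moves but not which duplicate is outlying.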

How the results depend on the processing

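Of 97 member results tested, 17 were called, and none changed sign with a call under 13 other settings or 16 fits that each left out a library. 5 of the 17 calls were kept under all of them: VEGFA at the first 2 steps at atmospheric oxygen and its interaction between transformed and immortalized cells, and ANGPT1 and FLT1 between immortalized and transformed cells at 3% oxygen. A fit of only the libraries compared, which has few degrees of freedom, gave 0 members called between oxygen levels in place of 2, 2 interactions in place of 5, 0 VEGFA transcripts in place of 4, and an adjusted p of 0.0111 at the unchanged 2.29 for VEGFA in the transformed cells. An adjusted p under 0.05 gave 5, 8 and 8 of these. Coding transcripts alone (chosen after seeing the data) gave 3 interactions. Both VEGFB interactions and that of VEGFA between metastasizing and transformed cells were lost, and that of NRP2 between transformed and immortalized cells was gained. No intensity trend gave 2 VEGFA transcripts. Leaving out single libraries gave 1 to 4 members between oxygen levels, 3 to 6 at the steps at atmospheric and 3 to 6 at 3% oxygen, 2 to 7 interactions and 2 to 6 VEGFA transcripts. It moved the VEGFA oxygen difference over 0.29 to 0.64 in the primary, -0.49 to -0.26 in the immortalized, 2.14 to 2.45 in the transformed and 0.18 to 1.0 in the metastasizing cells. The letters a and b showed no shared deviation: deviations of libraries with the same letter correlated at -0.15 to -0.08 between oxygen levels. These values cannot tell whether plates were handled in pairs. A replicate block left 2 members called between oxygen levels, 5 in each other family and 3 VEGFA transcripts, with 2.29 for VEGFA in the transformed cells (adjusted p = 0.000102). A crossed replicate block, also added later, gave the same counts of 2, 5, 5, 5 and 3. Among uncalled results, 19 changed sign under some setting. Depth is unknown, so no counting error can be given for low genes such as KDR and ANGPT2.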
